A study of Rattus norvegicus with 20 samples.

Results

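The genes described here are smooth muscle contractile markers: Acta2, Tagln, Cnn1, Myh11, Smtn, Mylk and Cald1. Members were found by gene name on the array, with case ignored and the probe description checked, among probes that are not controls. Of the 7 genes, 6 had a probe and were tested, among 30503 genes tested in all, and they had 11 of the 41012 probes. The names of 5 genes matched exactly. Mylk was listed only under a name marked as predicted, whose description reads as a myosin light chain kinase, and it was used with that caveat. No probe carried the name Acta2, so smooth muscle alpha-actin is not analysed here.

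The arrays read total RNA of neonatal rat heart cells kept as primary cultures for a day before treatment and labelled as cardiomyocytes. Cultures received diclofenac, a nonsteroidal anti-inflammatory drug that inhibits cyclooxygenases, for 24 h or 6 h at reference concentration 1/25, 1/5 or 1 (n = 3 arrays in each of 6 groups), or were untreated (n = 2). The labels give the concentrations only as fractions of a reference, give no time for the untreated cultures and name no untreated group of its own for 24 h, so hours of drug and hours of culture cannot be told apart. Whether replicates are separate cultures or animals is not stated, and p-values cover the spread between these arrays alone, part of which may be technical.

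Smooth muscle contracts when myosin light chain kinase phosphorylates the regulatory light chain of smooth muscle myosin, which then pulls on actin filaments. Calponin, caldesmon, transgelin and smoothelin sit on those filaments, and calponin and caldesmon restrain the myosin. In the heart these genes mark the vessel wall and, in part, activated fibroblasts (myofibroblasts), and many are switched on through serum response factor and its partners of the myocardin family. In a mixed culture, fewer cells of a type and less RNA per cell cannot be told apart.

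The probes are strands of 60 bases, positioned on rat build rn3 in the array files, and each can read only the stretch it matches. The sequences below are shown because the results turn on them, and because different probes of Myh11, Smtn and Mylk gave different answers. In each, at least 1 reading frame without a stop codon was found. The brighter Mylk probe is not printed here, and no such frame was found in it. The first is the Cnn1 probe (chr8:21219991-21220050, plus strand), followed by the brighter Myh11 probe (chr10:719479-719538, plus strand), the second Myh11 probe (chr10:769508-769567, plus strand), the brighter Smtn probe (chr14:84179942-84180001, minus strand), the second Smtn probe (chr14:84188320-84188379, minus strand), the second Mylk probe (chr11:67715246-67716046, minus strand) and the Tagln probe (chr8:48911502-48911882, minus strand). The positions of the second Mylk probe and of the Tagln probe span 801 and 381 bases of the genome, more than the probe's own length.
Cnn1 probe: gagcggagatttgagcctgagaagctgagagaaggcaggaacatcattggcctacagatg
Myh11 brighter probe: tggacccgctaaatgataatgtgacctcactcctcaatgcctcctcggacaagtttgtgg
Myh11 second probe: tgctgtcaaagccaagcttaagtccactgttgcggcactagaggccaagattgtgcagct
Smtn brighter probe: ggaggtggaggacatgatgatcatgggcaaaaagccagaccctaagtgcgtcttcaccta
Smtn second probe: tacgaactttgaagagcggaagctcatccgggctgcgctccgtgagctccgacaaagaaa
Mylk second probe: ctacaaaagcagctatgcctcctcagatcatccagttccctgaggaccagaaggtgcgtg
Tagln probe: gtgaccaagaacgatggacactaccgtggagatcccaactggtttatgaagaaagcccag

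Levels are log2 of the processed signal over the array's 75th percentile, so 0 is that percentile and a step of 1 is a doubling. They compare arrays for 1 probe and not probes with each other. Between 64.1% and 88.2% of an array's spots were well above background, with a median of 83.7%. Of the 4 arrays under 80%, 3 were 24 h arrays and 1 was a 6 h array. They were replicates 1 and 3 at 1/5 and replicate 1 at 1/25 for 24 h, and replicate 2 at 1/25 for 6 h. Among markers of the labelled cell type, 15 of 17 measured cardiomyocyte genes were well above background on all 20 arrays. A probe well above background on all arrays was found for 21265 genes, beside the 30503 tested, so this count alone does not identify the cells.

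Cnn1, and Myh11 by its brighter probe, were lower after 24 h than after 6 h of diclofenac. By the brightest probe of each, Smtn, Mylk and Tagln had changes below 0 that did not pass the test, and that of Tagln turned above 0 in some other settings. The second Myh11 probe did not pass the test, and the second probes of Smtn and Mylk gave other answers, all described below. The Cald1 spot was saturated on most arrays, so no size or direction is read from it. Cnn1 and Myh11 encode calponin 1, which binds actin and restrains the myosin motor, and the heavy chain of smooth muscle myosin, the motor itself. The 9 arrays at 24 h were compared with the 9 at 6 h in a limma fit over all 20 arrays with a mean for each group, and p-values were adjusted by the Benjamini-Hochberg method over all genes, with a threshold of 0.05. Of 6 genes, 2 were called lower and 0 higher, against 13.4% called lower and 7.69% called higher among the 30501 genes tested. The median of the members' log2 changes was -0.68 with the saturated Cald1 spot and -0.79 without it, beside -0.09 for all genes tested. In either direction 21.0% of all genes were called, so 2 calls among 6 genes do not set the members apart.

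**Figure D1:**
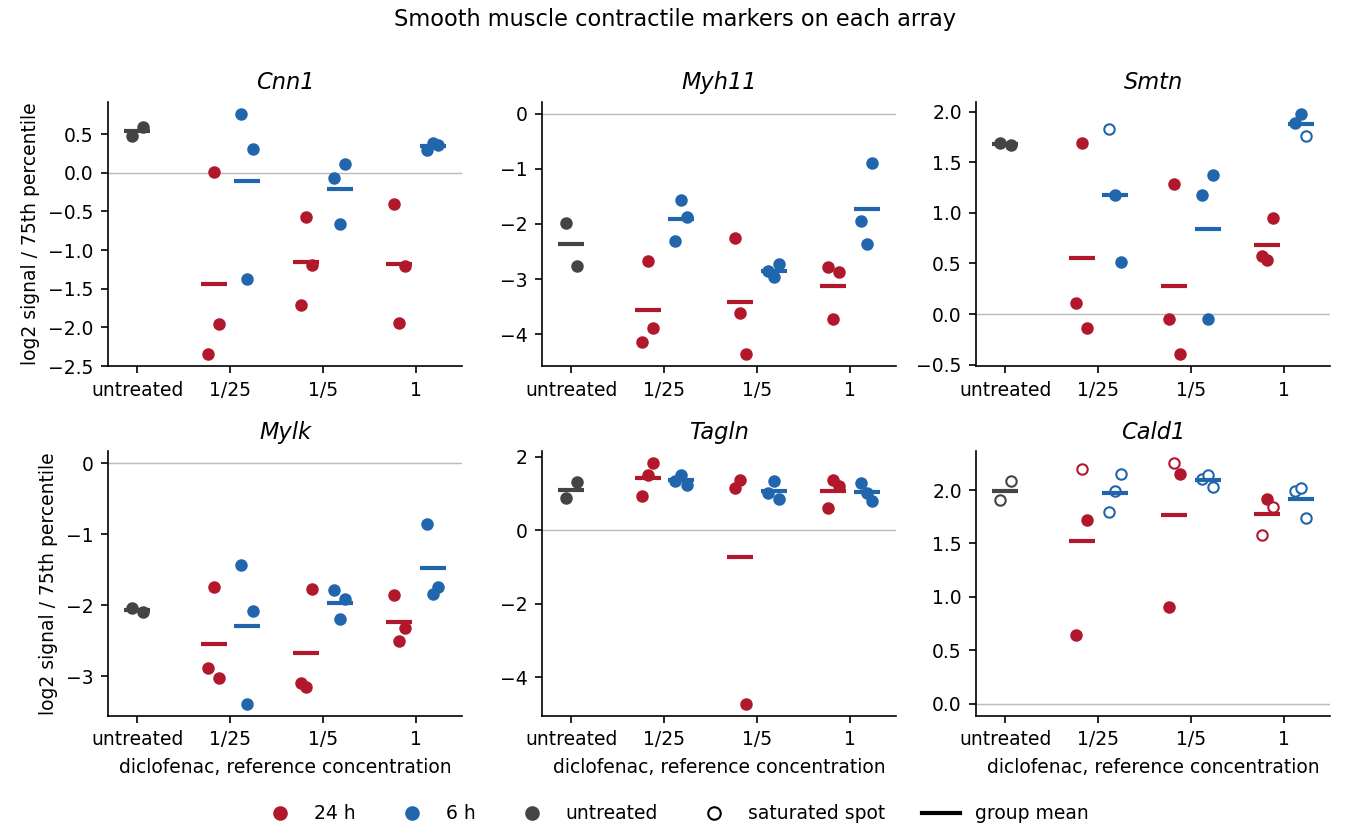
Level of each measured member on each of the 20 arrays (log2 of signal over the array's 75th percentile), by reference concentration of diclofenac, with 24 h in red, 6 h in blue and untreated cultures in grey. Each point is an array, open where the spot was saturated, and bars are group means. All 9 arrays at 24 h and 8 of 9 at 6 h lie below both untreated arrays for Cnn1. The share of all genes placed in this way is not given, so this position does not set Cnn1 apart. For Tagln, 1 array at 1/5 for 24 h sets the low mean.

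Along the concentration series at 24 h, Cnn1 read 0.48 and 0.59 on the untreated arrays, -2.35, 0.01 and -1.96 at 1/25, -1.71, -0.57 and -1.20 at 1/5, and -0.40, -1.95 and -1.21 at 1. At 6 h it read 0.76, -1.38 and 0.30 at 1/25, -0.07, -0.66 and 0.11 at 1/5, and 0.29, 0.39 and 0.36 at 1. All 9 arrays at 24 h were below the lower untreated array, and so were 8 of the 9 at 6 h. Here and for the genes below, the share of all genes placed in this way is not given. Such positions therefore describe these arrays and do not set a member apart. The 24 h and 6 h arrays overlapped, since replicate 2 at 1/25 for 6 h was as low as the 24 h arrays and replicate 2 at 1/25 for 24 h was near 0. Cnn1 averaged -1.26 ± 0.80 at 24 h and 0.01 ± 0.65 at 6 h (SD, n = 9 each), a log2 change of -1.27 ± 0.35 (SE, limma adjusted p = 0.0225). The call was lost without any 1 of 3 arrays: replicate 2 at 1 for 24 h (adjusted p = 0.0565), replicate 1 at 1/25 for 6 h (adjusted p = 0.0548) or replicate 1 at 1/25 for 24 h (adjusted p = 0.0530).

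Myh11, read by its brighter probe, was at -1.98 and -2.76 on the untreated arrays, -4.14, -2.68 and -3.89 at 1/25, -2.25, -3.62 and -4.37 at 1/5, and -2.78, -3.73 and -2.88 at 1 for 24 h. After 6 h it was at -2.31, -1.56 and -1.87 at 1/25, -2.85, -2.96 and -2.73 at 1/5, and -1.95, -2.36 and -0.89 at 1. Of the 9 arrays at 24 h, 7 were below the lower untreated array, against 2 of 9 at 6 h. The 6 h arrays at 1/5 lay among the 24 h arrays, and 4 of the 6 at 1/25 and 1 were above every 24 h array. Myh11 averaged -3.37 ± 0.74 at 24 h and -2.16 ± 0.67 at 6 h (SD, n = 9 each), a log2 change of -1.21 ± 0.30 (SE, limma adjusted p = 0.0174). The spot was well above background on 19 of 20 arrays in all, the exception being replicate 3 at 1/5 for 24 h. The second Myh11 probe, well above background on 8 of 9 arrays at 24 h and 7 of 9 at 6 h, gave a change of -0.52 ± 0.49 (SE, limma adjusted p = 0.421 over all kept probes), which did not pass.

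Arrays lay on 6 slides scanned on 3 days, and neither slide nor scan day can be fitted as a fixed term beside the pooled time comparison. On the 1 scan day that held both times, where the 24 h arrays came from all 3 concentrations and the 6 h arrays from 1/25 alone, Cnn1 averaged -1.34 on 7 arrays at 24 h and -0.11 on 3 at 6 h, a difference of -1.23, and the Myh11 difference was -1.48. On the 1 slide that held both, with 24 h at concentration 1 and 6 h at 1/25, the difference of 3 arrays at 24 h from 1 at 6 h was -1.48 for Cnn1 and -1.26 for Myh11. Within both batches time is mixed with concentration and rests on 3 arrays and 1 array at 6 h, so batch and time cannot be fully told apart. Without the 4 arrays of low signal, a check chosen after the data were seen, Cnn1 changed by -1.13 ± 0.33 and Myh11 by -1.12 ± 0.30 (SE), with limma adjusted p = 0.0391 and 0.0292. In the same check Mylk was called lower, at -0.85 ± 0.25 (SE, limma adjusted p = 0.0419), and Smtn stood at -0.38 ± 0.34 (SE, limma adjusted p = 0.445). Within groups, an array's share of spots above background had r = 0.59 with Cnn1 and 0.43 with Myh11 over the 20 arrays, as a description with no test, and its part in the result was not tested.

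Smoothelin (Smtn), an actin-associated protein of contractile smooth muscle, had the next largest change. Its brighter probe read 1.69 and 1.67 on the untreated arrays, 0.11, 1.69 and -0.14 at 1/25, -0.05, 1.29 and -0.40 at 1/5, and 0.57, 0.53 and 0.95 at 1 for 24 h. After 6 h it read 1.83, 1.18 and 0.51 at 1/25, 1.18, -0.05 and 1.38 at 1/5, and 1.89, 1.98 and 1.76 at 1. The times did not overlap at concentration 1 and overlapped at 1/5 and 1/25, and the spot was saturated on 0 of 9 arrays at 24 h and 2 of 9 at 6 h. The log2 change over all concentrations was -0.79 ± 0.30 (SE, limma adjusted p = 0.0685), which missed the threshold. The second Smtn probe was well above background on 5 of 9 arrays at 24 h and 8 of 9 at 6 h. By group means it was 3.49-fold lower at 24 h. For this, the array's lowest signal well above background stood in for any dimmer value at 24 h. The dim value at 6 h was kept as read, so the fold is not a strict lower bound. As read, the arrays ran from -8.39 to -3.05 at 24 h and from -5.89 to -2.06 at 6 h. The test used the values as read, dim ones included, and not this fold (limma adjusted p = 0.0199 over all kept probes).

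For myosin light chain kinase (Mylk), the enzyme that starts contraction, the probes moved in opposite directions and neither passed the test. The brighter probe (chr11:67661889-67661948, minus strand) ranged from -3.16 to -1.74 at 24 h, with a median of -2.51, and from -3.39 to -0.86 at 6 h, with a median of -1.84. Its change was -0.57 ± 0.29 (SE, limma adjusted p = 0.144). The second probe changed by 0.39 ± 0.24 (SE, limma adjusted p = 0.208 over all kept probes). The direction for Mylk therefore depends on the probe.

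Caldesmon (Cald1) restrains myosin on actin filaments, and its brightest probe was at the top of the scale. That probe (chr4:62432373-62432432, plus strand) was saturated on both untreated arrays and all 9 arrays at 6 h, and on 4 of 9 at 24 h. It ranged from 0.64 to 2.25 at 24 h, with a median of 1.84, and from 1.74 to 2.15 at 6 h, with a median of 2.02, and no fold is given for it. The second Cald1 probe (chr4:62363016-62363075, plus strand) was saturated on no array and ranged from -3.23 to -1.25 at 24 h and from -3.58 to -0.80 at 6 h. Its change of -0.76 ± 0.27 (SE, limma adjusted p = 0.0544 over all kept probes) missed the threshold. A probe described as heavy caldesmon mRNA, the long form made in smooth muscle, lies outside the name rule (chr4:62402587-62402646, plus strand) and was looked up after values were seen. It changed by -1.05 ± 0.29 (SE, limma adjusted p = 0.0228 over all kept probes).

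Transgelin (Tagln), an actin-binding protein abundant in smooth muscle, stood at 0.59 to 1.82 on 19 of the 20 arrays. The exception was replicate 3 at 1/5 for 24 h, at -4.73 and not well above background, on the array with the lowest share of spots above background (64.1%). The arrays at 24 h had a median of 1.20 and those at 6 h a median of 1.23. The change over all arrays was -0.58 ± 0.59 (SE, limma adjusted p = 0.459), and without that array it was 0.09. Tagln thus gave no difference between the times beyond the spread of the arrays.

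**Figure D2:**
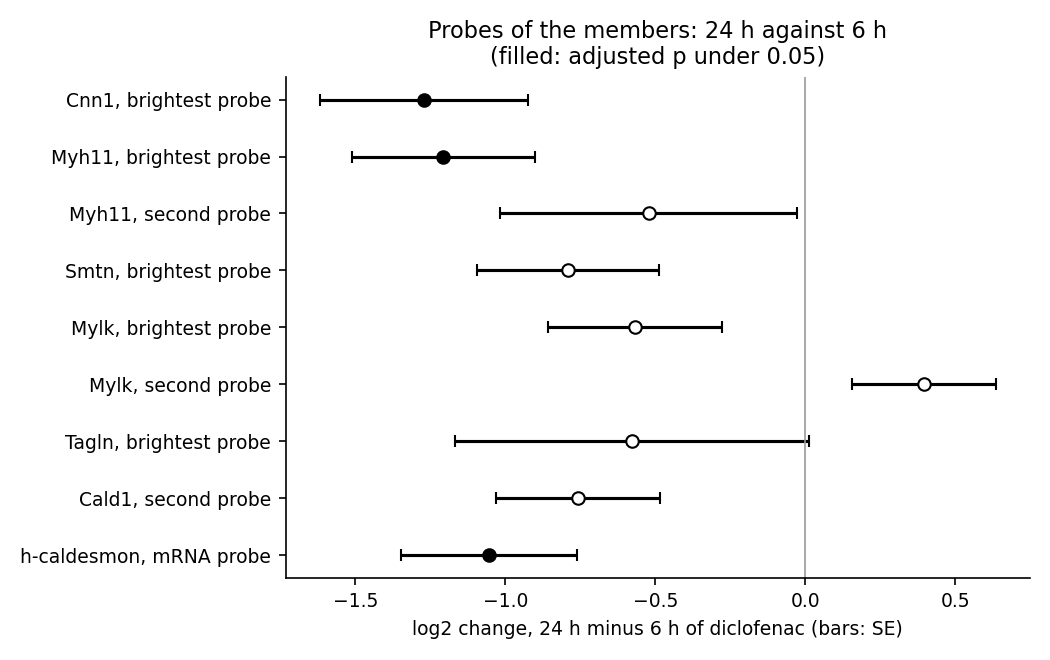
Log2 change at 24 h minus 6 h of diclofenac for the kept probes of the members and for the heavy caldesmon mRNA probe, with bars of 1 SE and filled points where the adjusted p was under 0.05. The saturated Cald1 probe and the second Smtn probe, dim on 4 of 9 arrays at 24 h, are not drawn, and of those drawn the second Mylk probe alone lies above 0.

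The times were also compared at each concentration, with 3 arrays against 3. At 1/5 and at 1 the times shared no slide and no scan day. At 1/25 they shared no slide, and 1 array at 24 h shared a scan day with the 6 h arrays. Batch and time thus cannot be told apart in these comparisons. No member was called at 1/25, 1/5 or 1 with limma, where 0%, 0.0984% and 0.233% of all genes were called, and 2, 0 and 3 members had an unadjusted p under 0.05. The share of all genes at that unadjusted threshold is not given, so these counts cannot be read against the shares called. Cnn1 changed by -1.33 ± 0.60 at 1/25, -0.95 ± 0.60 at 1/5 and -1.53 ± 0.60 at 1 (SE). Myh11 changed by -1.66 ± 0.53, -0.56 ± 0.53 and -1.40 ± 0.53 (SE) in the same order. Smtn changed by -0.62 ± 0.53, -0.56 ± 0.53 and -1.20 ± 0.53 (SE) in that order. At 1/5, Smtn ran from -1.06 to 0.46 and Myh11 from -1.14 to -0.05 over other settings and with 1 array left out, so neither size is firm there. The difference in the time change between concentrations 1 and 1/25 was called for 0 of 6 members and 0% of all genes, with 0 members at an unadjusted p under 0.05.

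Against the untreated cultures, no member was called in any treated group with limma. Both untreated arrays lay on 1 slide and 1 scan day, which held no array at 24 h and none at 1/25 for 6 h. For those groups, batch and treatment cannot be told apart. The share of all genes called was 0.00328% at 1/25, 0.184% at 1/5 and 0.00328% at 1 for 24 h, and 0%, 0% and 0.00656% for 6 h. At 24 h the members with an unadjusted p under 0.05 numbered 1, 2 and 1 in the same order, and at 6 h there were 0 in each group. These counts, too, lack the share of all genes at the unadjusted threshold. Cnn1 at 24 h had the largest difference at 1/25 and at 1, and at 1/5 it came after Tagln (-1.83), whose value rests on 1 array. Cnn1 averaged -1.44 ± 1.26 at 1/25, -1.16 ± 0.57 at 1/5 and -1.19 ± 0.77 at 1 (SD, n = 3 each), against 0.54 ± 0.08 in untreated cultures (SD, n = 2). The changes were -1.98, -1.70 and -1.73 with an SE of 0.67, and limma adjusted p = 0.345, 0.131 and 0.999.

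Smtn and Myh11 were also below the untreated mean in each 24 h group. Smtn changed by -1.13 at 1/25, -1.40 at 1/5 and -1.0 at 1 (SE 0.59), and Myh11 by -1.20, -1.05 and -0.76 (SE 0.59). At 6 h the same 3 genes did not share a direction. Cnn1 changed by -0.65 at 1/25, -0.75 at 1/5 and -0.19 at 1, Smtn by -0.51, -0.84 and 0.19, and Myh11 by 0.45, -0.48 and 0.63. None of these passed, and with 2 untreated arrays a difference of this size could not be told from the spread. Nor can the differences at 24 h be told from batch, as given above.

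Over all 18 treated arrays against the untreated ones, 0 of 6 members were called with limma (1 at an unadjusted p under 0.05), as were 0% of all genes. The share of all genes at the unadjusted threshold is again not given for this comparison. In the test of any difference between the 7 groups, 0 of 6 members and 0.692% of all genes were called, with unadjusted p = 0.0157 for Myh11 and 0.028 for Cnn1 and limma adjusted p = 0.182 and 0.204. In that test 6547 of 30503 genes had an unadjusted p under 0.05, so these values do not set Myh11 and Cnn1 apart.

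Between neighbouring concentrations at 1 time, no member was called with limma in any of 4 comparisons. The shares of all genes called at 24 h were 0.00328% for 1/5 minus 1/25 and 0% for 1 minus 1/5, and at 6 h they were 0% and 0.00656%. At 6 h, Myh11 was higher at 1 than at 1/5 by 1.12 ± 0.53 and Smtn by 1.04 ± 0.53 (SE), with unadjusted p = 0.0495 and 0.0646 and limma adjusted p = 1.00 for both. At 24 h, Tagln changed by -2.16 ± 1.02 (SE, unadjusted p = 0.0499 and limma adjusted p = 0.483) at 1/5 minus 1/25, a value that rests on the 1 array named above. These were the comparisons with a member at an unadjusted p under 0.05, 1 member in each, without the share of all genes at that threshold. In the order of group means, neighbours were closer than the pooled SD of the arrays in each gene apart from 2 gaps. Cnn1 at 1/5 for 24 h lay 0.95 under 1/5 for 6 h (pooled SD 0.78), and the lowest Tagln group lay 1.77 under the next (pooled SD 1.39).

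**Figure D3:**
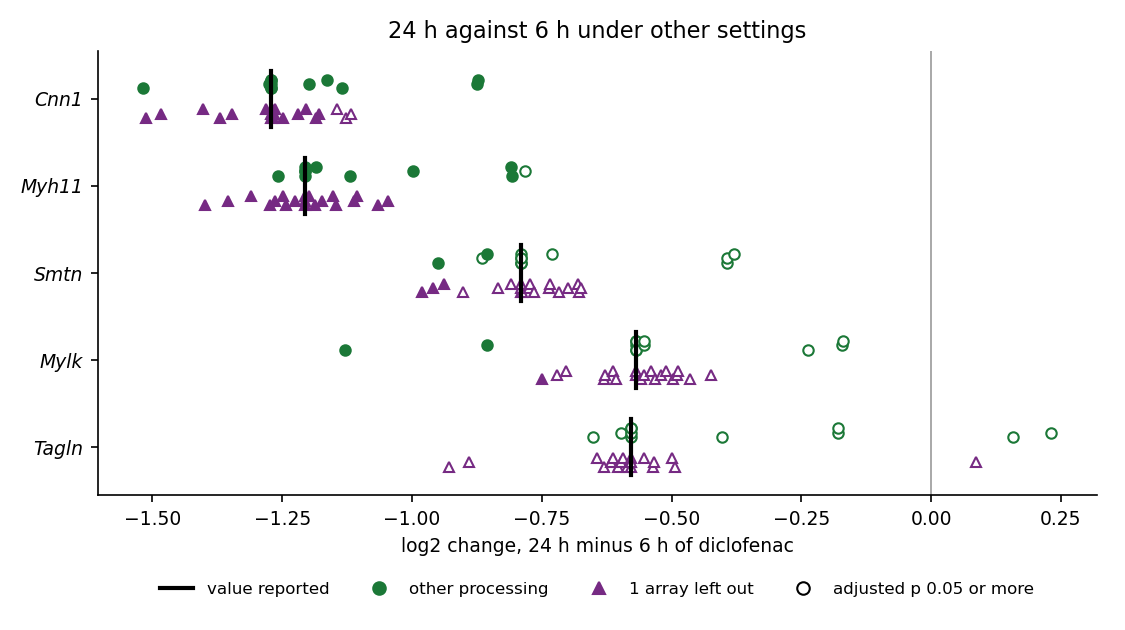
Log2 change at 24 h minus 6 h for each member but the saturated Cald1, as reported (black line), under other processing (green circles) and with 1 array left out (purple triangles), filled where the adjusted p was under 0.05. Cnn1 stays between -1.52 and -0.87 and Myh11 between -1.40 and -0.78, while Tagln crosses 0.

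The members did not all follow each other across the 20 arrays. As a description with no test, Pearson's r was 0.77 between Cnn1 and Smtn, 0.72 between Cnn1 and Mylk, and 0.60 between Myh11 and each of Cnn1 and Smtn. For Tagln, Spearman's rho with the other 5 ran from -0.34 to 0.20, and is given in place of r because 1 array stood far below the rest. After the group means were taken out, r was 0.61 for Cnn1 and Smtn, 0.70 for Cnn1 and Mylk, and 0.18 for Cnn1 and Myh11, so Cnn1 followed Smtn and Mylk from array to array within groups as well. Smtn and Mylk followed each other less, with r = 0.21 within groups, and Tagln and Mylk had r = -0.51, with the far Tagln array in it. These points share arrays, and with them the array's overall signal.

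The genes most like the mean of the members over the 20 arrays were Artn, Tpcn1, Cdkn2b, Hgs and Arf6, with r between 0.96 and 0.97. For single members the 2 most alike were Tmem38a and Chst5 for Cnn1, Tlcd3b and Lgals5 for Myh11, Nosip and Col6a2 for Smtn, Nup62 and Lig3 for Mylk, Smim3 and Stk38 for Tagln, and Gtf2f1 and Fmo4 for Cald1, with r between 0.87 and 0.99. The r for Tagln has its 1 far array in it, and the r for Cald1 uses the saturated spot. Both genes also enter the mean of the members. The probe for heavy caldesmon mRNA had r = 0.90 with the mean of the members and 0.91 with Cnn1. Among 30267 genes with a value on every array, 539 had a higher r than it with Cnn1. These values are a description with no test.

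Of the genes that control or accompany the members, lists were compared between 24 h and 6 h over all concentrations, beside the 7.69% of all genes called higher and 13.4% called lower. Among 15 measured regulators of serum response factor and the myocardin family, 1 was called higher and 2 lower, with a median change of -0.25. Elk1, a transcription factor that competes with myocardin for serum response factor, averaged -2.93 ± 1.88 at 24 h and -0.31 ± 1.60 at 6 h (SD, n = 9 each), a change of -2.62 ± 0.77 (SE, limma adjusted p = 0.0282). Csrp2, a LIM domain protein of smooth muscle, averaged 0.02 ± 0.96 at 24 h and -1.0 ± 0.33 at 6 h (SD, n = 9 each), a change of 1.02 ± 0.33 (SE, limma adjusted p = 0.0393).

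Among 22 relatives of the members (other actins, calponins, transgelins, tropomyosins and linked proteins), 1 was called higher and 3 lower, with a median change of 0.06. Myh9, the heavy chain of non-muscle myosin, averaged -3.09 ± 0.59 at 24 h and -0.32 ± 1.69 at 6 h (SD, n = 9 each), a change of -2.77 ± 0.50 (SE, limma adjusted p = 0.00404). Tagln2, a transgelin found beyond smooth muscle, changed by -2.01 ± 0.49 (SE, limma adjusted p = 0.0152).

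Of 15 other genes of smooth muscle differentiation, 1 was called lower and 0 higher, with a median change of -0.02. The named pair, Vim and Aoc3, changed by -1.73 ± 0.68 and -0.97 ± 0.42 (SE) and did not pass (limma adjusted p = 0.0754 and 0.0989). Of 21 genes of TGF-beta signalling and myofibroblasts, 2 were called higher and 7 lower, with a median change of -0.18. Thbs1, which encodes thrombospondin 1, an activator of TGF-beta, was well above background on 2 of 9 arrays at 24 h and 8 of 9 at 6 h. By group means it was 10.6-fold lower at 24 h. For this, the array's lowest signal well above background stood in for any dimmer value at 24 h. The dim value at 6 h was kept as read, so the fold is not a strict lower bound. The test used the values as read, dim ones included, and not this fold (limma adjusted p = 0.00615).

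**Figure D4:**
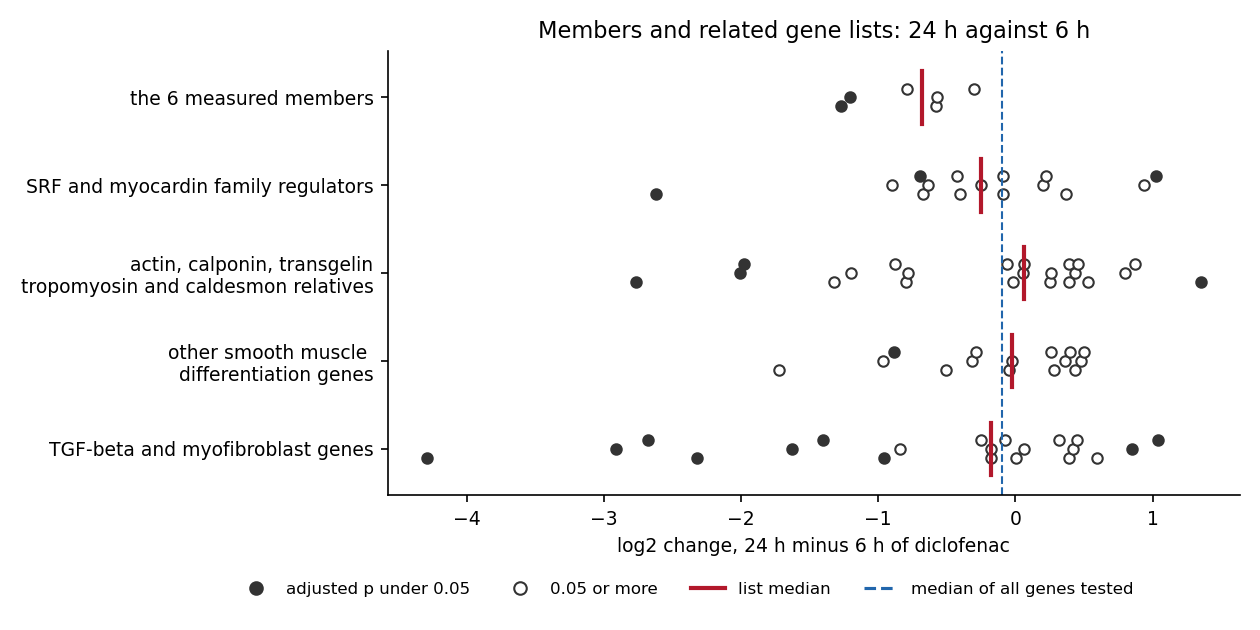
Log2 change at 24 h minus 6 h of diclofenac for the 6 measured members and for each gene of 4 related lists, with list medians in red and the median of all genes tested (-0.09) as a dashed line; filled points had an adjusted p under 0.05, and spots saturated or dim on some arrays, such as Cald1 and Thbs1, are drawn at their computed values. The members' median is -0.68, and the medians of the lists lie between -0.25 and 0.06.

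Markers of the cell types that could carry these genes were counted in the same way, beside the 21.0% of all genes called in either direction, and the shares called among fibroblast, cardiomyocyte, endothelial and leukocyte markers were near it. Of 10 measured pericyte and other mural markers, 3 were called lower and 0 higher, with a median change of -0.21, and their summed level, in units of the array's 75th percentile, ran from 10.3 to 26.7 with a median of 12.7 at 24 h and from 10.6 to 16.3 with a median of 13.9 at 6 h. Of 18 fibroblast markers, 1 was called higher and 2 lower, and the sum, in which Col1a1, Col1a2 and S100a4 were saturated on all 20 arrays, ran from 24.4 to 157 with a median of 38.7 at 24 h and from 33.5 to 39.0 with a median of 36.7 at 6 h. Of 17 cardiomyocyte markers, 1 was called higher and 3 lower, and the sum ran from 21.6 to 92.2 with a median of 34.5 at 24 h and from 26.6 to 34.4 with a median of 28.0 at 6 h. The summed level of the members themselves, the saturated Cald1 spot included, ran from 4.91 to 12.1 with a median of 8.17 at 24 h and from 8.87 to 12.1 with a median of 9.99 at 6 h, and was 10.7 and 11.8 in the untreated cultures. Endothelial markers were called higher in 2 and lower in 1 of 11 genes, leukocyte markers in 2 and 1 of 11, epithelial and mesothelial markers in 0 and 3 of 8, and erythroid markers in 0 and 2 of 6. The part of these cell types in the members' change was not tested.

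RefSeq promoter windows of 300 bases on build GRCr8, from 250 before the start to 50 after it, were listed for 5 of the 7 genes. They were searched on both strands for the CArG box, the element that serum response factor binds. A CArG box was found in 0 of the windows of the members, against 1.64% of 33469 windows in all. With 1 base of its core allowed to differ, it was found in the window of Acta2, in 2 places, against 9.42% of all windows. The search covers these windows alone.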

How the data were processed

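One-colour Agilent arrays were used. Per the file headers, images were read with Feature Extraction 9.5.3.1, and the deposited intensity values are background-subtracted and detrended, not scaled between arrays. The authors' deposited table is a ratio: each array's signal over its median, over the untreated mean (median absolute log2 difference from a rebuilt ratio at most 0.00504). Signals were taken as log2 of intensity over the array's 75th percentile. Outlier spots were dropped, saturated ones kept, and spots of a probe averaged. A probe had to be well above background throughout 1 or more groups (35065 of 41012), the brightest standing for its gene. Names were updated through RefSeq, and 20970 probes kept the file's name. The titles' groups entered 16 comparisons, made in limma (3.58.1, under R 4.3.3), tested on simulated data. Tables used pandas 2.3.3 and numpy 2.4.6 under Python 3.11.15. The members and lists were chosen with earlier results of these data known. Named genes were the 7 members, up to 2 genes of each list with the largest change between times, and the most alike genes by Pearson's r. A list and a gene that this rule takes in are not reported here. Precision is limited by how many arrays there are. The alternatives tried were other background corrections, scalings, probe filters, blocks and weights, and leaving out each array.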

Additional observations from a re-analysis of the deposited data

Results flagged for a closer look

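The change from untreated cultures differed between the times in 2 members. For Cnn1 the change at 24 h minus the change at 6 h was -1.27 on the log2 scale (limma adjusted p = 0.0225), and for Myh11 it was -1.21 (limma adjusted p = 0.0174). Both use the same 2 untreated arrays on each side, so they equal the comparison of 24 h with 6 h. Another Cald1 probe (chr4:62363214-62363273 on build rn3) stayed out of the tests because it was not well above background on every array of any group. It was well above background on 3 of 18 treated arrays (2 at 24 h and 1 at 6 h) and on 0 of 2 untreated arrays.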

How the results depend on the processing

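Settings were changed 1 at a time, in 34 alternatives. For 24 h minus 6 h, Cnn1 was called lower in 29 of 32 alternatives that gave a value (-1.52 to -0.87) and Myh11 in 30 of 31 (-1.40 to -0.78), the exception being quantile normalization (-0.78, adjusted p = 0.0543). Smtn passed in 5 of 32, among them quantile normalization and slide as a random block, and Mylk in 3 of 32. Tagln turned to 0.16 with array weights and 0.23 without the 4 low-signal arrays. The value computed for Cald1, whose spot was saturated on most arrays so that neither its size nor its sign can be read, came to 0.0926 with median scaling and 0.0940 with the deposited table, and was at 0.00355 without the low-signal arrays. At concentration 1/5, Smtn turned to 0.0761 with array weights and 0.46 without the low-signal arrays.

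Members called at 24 h minus 6 h numbered 1 when probes had to be above background on all arrays (Myh11 and Tagln then had no kept probe), and 1 to 3 with 1 array left out. Slide as a random block had a consensus correlation of -0.168 and called 2 members at 1/5 for 24 h against untreated, 2 at 24 h minus 6 h at 1/5, and 3 for any group difference. Array weights, whose estimate stopped before it converged, called 1 member at 1 and 5 at 1/25 for 24 h against untreated, 2 for 1 minus 1/5 at 6 h, 4 at 1 and 5 at 1/25 for 24 h minus 6 h, 2 in the interaction and 5 for any group difference. With 1 array left out, 0 to 2 members were called at 1/5 for 24 h against untreated (2 without its replicate 2), 0 to 1 at 1/25 for 24 h against untreated and for any group difference (1 without replicate 2 at 1/25 for 24 h), and 0 to 1 in 1 minus 1/5 at 24 h and in 24 h minus 6 h at 1/5 (1 without replicate 2 at 1/5 for 24 h). Leave-one-out values of the Cnn1 change ran from -1.51 to -1.12, of Myh11 from -1.40 to -1.05, of Smtn from -0.98 to -0.68, of Mylk from -0.75 to -0.42 and of Tagln from -0.93 to 0.0872 (without replicate 3 at 1/5 for 24 h).

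Of all genes, 6419 were called at 24 h minus 6 h (2346 higher, 4073 lower, 36.5% higher). Under median scaling 11063 were called (77.2% higher), and 11109 with the deposited ratios (77.5% higher), with the median of all genes at 0.30 in both in place of -0.09. Quantile normalization called 6611 (60.2% higher), the filter on all arrays 4250 (56.0% higher), and slide as a random block 14861. With 1 array left out the count ran from 2322 to 13476. The cause of these shifts was not tested. The replicate block moved no member across the threshold (adjusted p = 0.0368 for Cnn1 and 0.0295 for Myh11), and same-numbered arrays had a median correlation of -0.0398 over 57 pairs. With slide or scan day as a fixed block the pooled comparison of the times gave no value. Of 3100 values over the 96 changes of a member in a comparison, 159 had the opposite sign to the value reported, 13 of them where that value was larger than its SE. The low signal of 4 arrays and the saturation of Cald1 limit what these arrays can show.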
